A study of Rattus norvegicus with 79 samples.

Results

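CA1 tissue of 3-month male rats trained to find a hidden platform was compared with CA1 tissue of 3-month male rats that had swum without any platform. The members were chosen by sample title and comprise 12 of the 79 arrays of the series, 6 from hidden platform rats and 6 from yoked rats, with 1 array per animal. All animals were Fischer 344 rats (spelled Fisher-344 in the labels), housed in pairs, and the labels name no genotype, drug or surgery. Killing took place 24 hours after the final trial, under pentobarbital, so the arrays show RNA levels 1 day after behaviour. The main CA1 cell layer was taken with a 300 µm punch from slices stored in RNAlater, and its RNA was amplified in 2 rounds before hybridisation. Yoked rats swam with no platform in the pool, and the comparison asks which CA1 transcripts differ with learning the place of the platform beyond swimming itself. The labels do not state how many trials or days of training were given, whether cage mates were in the same group, or how well each rat performed. The p-values below measure the spread between these 12 animals.

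CA1 is the output field of the hippocampal circuit, where pyramidal neurons receive Schaffer collateral input from CA3 and send it on to the subiculum and cortex. The hidden version of the water maze requires the hippocampus, because the platform can be located only from distant cues, and long-term memory for its place depends on new transcription and translation in these neurons. Activity first induces immediate early genes, some of which encode transcription factors such as Fos and Egr1 and some of which act directly at synapses, such as Arc and the short form of Homer1. AMPA and NMDA receptor subunits, their scaffolds, and the neurotrophin BDNF with its receptor TrkB are then thought to fix the change in synaptic strength. Immediate early transcripts usually return to near their starting level within hours of a single experience.

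One array stood apart from the other 11. The array of hidden platform animal 39 correlated with the other 11 at a median Spearman coefficient, over all probe sets, of 0.670, whereas the others lay between 0.871 and 0.943. It gave the highest signal of the 12 on 1596 probe sets and the lowest on 1135. Its median signal was 275, against 105 to 170 on the other 11 arrays. The mean log2 signal of its spike-in controls was 13.6, and that of yoked array 60 was 13.5. Its signal for Ttr, which encodes transthyretin and marks the choroid plexus, was 42280, against 148 to 1457 on the other 11 arrays. The summed signal of 4 choroid plexus and ependyma markers was 45580 on that array, most of it this Ttr signal, so the sum is not separate evidence. Over all hidden arrays this sum ranged from 1200 to 45580 with a median of 1543, and over the yoked arrays from 1579 to 2273. Whether carried-over choroid plexus or the quality of the array bears on any difference was not tested. Results are given with and without that array where they rest on it. On the yoked arrays of animals 58 and 60, control probe sets had log2 ratios of 3′ to 5′ signal of 1.505 and 1.641, against 2.24 to 2.73 on the other 4 yoked arrays. The hidden arrays had ratios of 2.47 ± 0.14 and the yoked arrays of 2.12 ± 0.46 (SD, n = 6 each), with p = 0.115 in a two-sided exact permutation test whose smallest possible p is 0.00216.

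**Figure D1:**
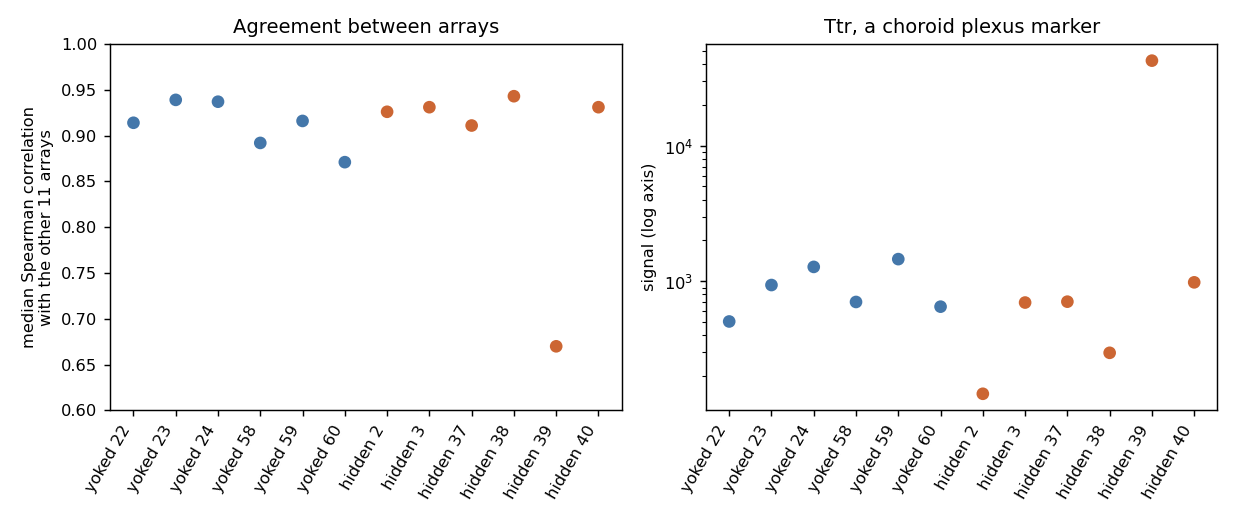
Left, each array's median Spearman coefficient against the 11 remaining arrays, over all probe sets. Right, the signal of Ttr on a log axis, where the array of hidden platform animal 39 reaches 42280 and the other 11 stay between 148 and 1457. Blue points are yoked rats and orange points hidden platform rats.

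The tissue label was checked against markers. Of 12 listed markers of CA1 and pyramidal cells, 8 were on the array and 5 had enough signal to be tested, namely Nrgn, Pou3f1, Ncdn, Hpca and Cck. Their summed signal ranged from 21130 to 48730 on hidden arrays and from 38770 to 51250 on yoked arrays, and the lowest value was that of array 39. Camk2a, a defining gene of excitatory neurons, did not pass the filter on low signal and was not tested. All 6 tested markers of the neighbouring dentate gyrus, CA2 and CA3 had a log2 difference below 0, the median being -0.32, and none passed the test. Without array 39, 5 of the 6 were below 0. In a punch of tissue, a smaller number of cells of one type and less RNA per cell cannot be told apart.

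No transcript passed the test between hidden platform and yoked rats. Of 5244 probe sets tested with limma and the Benjamini-Hochberg adjustment, 0 were higher and 0 lower at an adjusted p under 0.05 (0.0% called), and the smallest adjusted p was 0.946. Without a correction, 108 probe sets were higher and 72 lower at p under 0.05, which is 2.06% and 1.37% of those tested. Together these 180 (3.43%) are fewer than the 262.2 that an even spread of p-values would place there. Leaving out array 39 again gave 0 calls, where 207 probe sets (3.95%) had an uncorrected p under 0.05 and the lowest adjusted p was 0.956. Of those 207, 110 were among the 180 with the same sign. Leaving out the yoked array of animal 59 gave 1 call, and fits over all 19 3-month arrays or all 79 arrays gave 0.

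**Figure D2:**
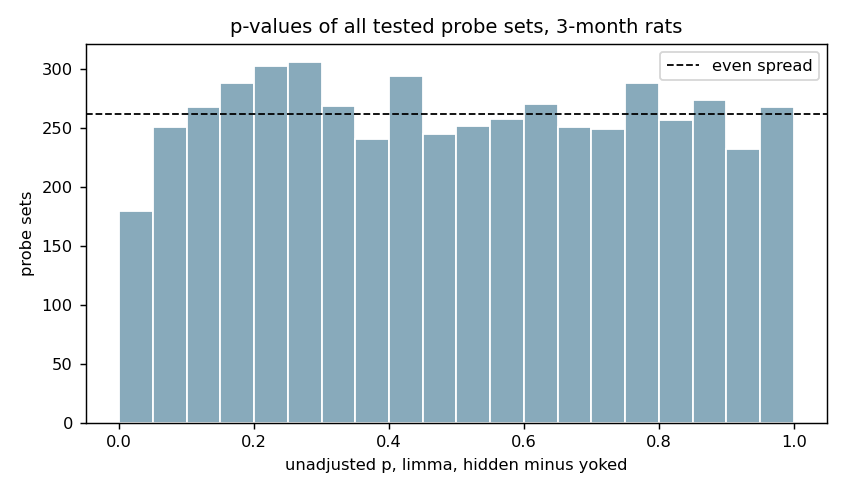
Number of probe sets (vertical axis) in 20 equal bins of the unadjusted limma p (horizontal axis) for hidden platform minus yoked rats at 3 months. The dashed line marks the 262.2 probe sets per bin of an even spread. The leftmost bin holds 180 probe sets and lies below the line.

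The absence of calls has to be read with the precision of 6 arrays against 6. The standard error of a log2 difference had a median of 0.35 over probe sets. For 2701 probe sets (51.5%) the 95% interval of the difference lay within 2-fold in both directions, so a larger change of these signals fell outside the interval. For the remainder the interval reached past 2-fold on at least one side, so a 2-fold difference was not excluded. Without array 39 the median standard error was 0.31 and 3224 probe sets (61.5%) had such an interval. Differences over 2-fold were measured on 87 probe sets with all arrays and on 97 without array 39, of which 50 were the same.

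Ranked by unadjusted p, the 8 leading genes with higher signal in hidden platform rats were Rapgef3, Rab8b, Nr3c1, Gria3, Epha5, Sipa1l1, Arc and Adarb1. They are given as values because limma's adjusted p was 0.976 for each. Arc, which encodes a postsynaptic protein that promotes removal of AMPA receptors and is itself induced by synaptic activity, had signals of 3641, 4722, 3212, 3761, 1921 and 3221 in hidden platform animals 2, 3, 37, 38, 39 and 40. In yoked animals 22, 23, 24, 58, 59 and 60 it had signals of 2530, 2091, 1896, 1572, 2326 and 1613. All hidden platform rats except animal 39 thus lay above every yoked rat. The log2 difference for Arc was 0.74 ± 0.25 (SE) with all arrays and 0.89 ± 0.21 without array 39. Without that array the unadjusted p was 0.000679 and the adjusted p 0.956.

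Nr3c1 encodes the glucocorticoid receptor, through which stress hormones act on CA1 neurons. Its signal ranged from 601.6 to 974.8 with a median of 765 in hidden platform rats, and from 340 to 537 with a median of 472 in yoked rats, so the groups did not overlap. The log2 difference was 0.76 ± 0.23 (SE) and 0.76 without array 39. A second probe set for Nr3c1 gave a log2 difference of 0.16 ± 0.33, and there the groups overlapped. Among the 13 tested genes of corticosteroid receptors and their response genes, 8 were higher and 5 lower, with a median log2 difference of 0.10 against 0.01 over all genes. Klf9, a transcription factor induced by glucocorticoids, had a log2 difference of -0.66 ± 0.31, with 0.06 on a second probe set, and Dusp1, a MAP kinase phosphatase induced by them, one of 0.92 ± 0.45. None passed the test.

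Of the AMPA receptor subunits, Gria3 had the smallest unadjusted p. Its signal ranged from 485 to 1234 with a median of 774 in hidden platform rats and from 194 to 812 with a median of 344 in yoked rats, and the upper yoked rats overlapped the hidden platform rats. The log2 difference was 1.14 ± 0.36 (SE), and a second Gria3 probe set gave 0.95 ± 0.49. Gria1, the subunit inserted at synapses during potentiation, differed by a similar 1.15 ± 0.65 but with a far wider spread. Its signals were 1479, 1020, 7023, 3922, 1418 and 8535 in hidden platform animals 2, 3, 37, 38, 39 and 40, and 426, 1734, 973, 676, 9440 and 882 in yoked animals 22, 23, 24, 58, 59 and 60. Yoked animal 59 had the highest Gria1 signal of all 12. Gria2, the subunit that makes the receptor impermeable to calcium, had a log2 difference of -0.28 ± 0.36 with an interval from -1.04 to 0.47.

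The remaining genes of the leading 8 encode signalling and RNA-modifying proteins. Rapgef3 encodes an exchange factor for the GTPase Rap that is opened by cyclic AMP. Its signal ranged from 147 to 268 with a median of 208 in hidden platform rats, and from 29.6 to 136 with a median of 81.9 in yoked rats. The groups did not overlap, and the log2 difference was 1.29 ± 0.36 (SE). Rab8b, a GTPase of vesicle transport, ranged from 215 to 359 in hidden platform rats and from 29.8 to 188 in yoked rats, with a log2 difference of 1.28 ± 0.38. The 2 lowest Rab8b signals belonged to yoked animals 58 and 60. Adarb1, an enzyme that edits adenosines in messenger RNA including that of Gria2, had a log2 difference of 1.22 ± 0.42, again with yoked animals 58 and 60 lowest. The ephrin receptor gene Epha5 differed by 0.98 ± 0.32. Sipa1l1, which encodes a Rap-inactivating protein of dendritic spines, differed by 0.78 ± 0.26, while its second probe set gave 0.26 ± 0.40. In 5 of these 8 genes, yoked animals 58 and 60 had the 2 lowest signals of all 12 arrays.

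**Figure D3:**
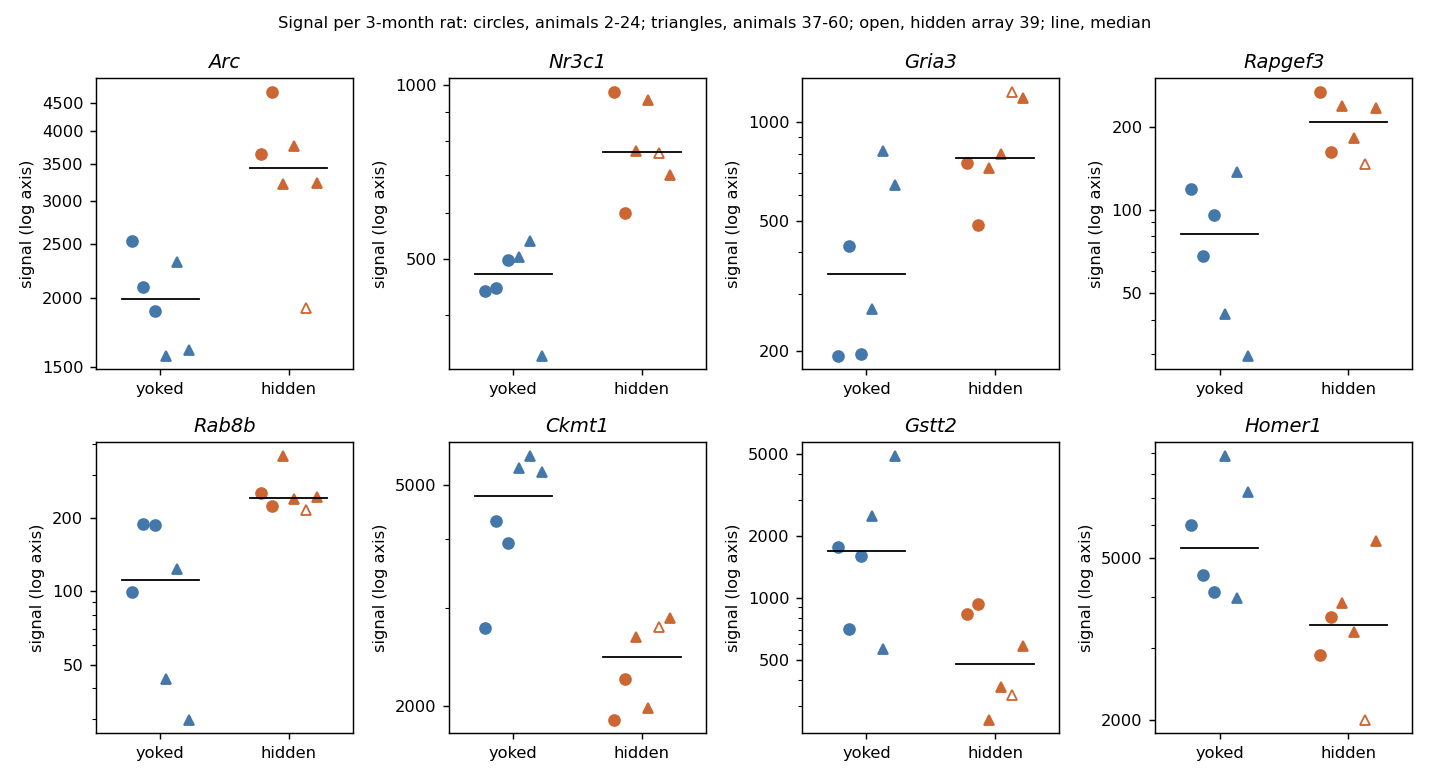
Signal per rat on log axes for 8 genes named in the text, yoked rats in blue and hidden platform rats in orange. Circles are animals numbered 2 to 24, triangles animals 37 to 60, the open triangle is hidden platform animal 39, and lines are medians. The groups do not overlap for Nr3c1, Rapgef3 and Rab8b, and animal 39 alone lies among the yoked rats for Arc.

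Ranked in the same way, the 8 leading genes with lower signal in hidden platform rats were Ckmt1, Gstt2, Eif2b3, Hmgb1, Lysmd4, Dlat, Lpl and Txnl1, each with an adjusted p of 0.976 in limma. Ckmt1 encodes the mitochondrial creatine kinase, which passes phosphate from ATP to creatine. Its signal ranged from 1893 to 2881 with a median of 2452 in hidden platform rats and from 2769 to 5637 with a median of 4780 in yoked rats. Only yoked animal 22 fell within the range of the hidden platform rats. The log2 difference was -0.89 ± 0.24 (SE), and a second probe set gave -0.41 ± 0.27.

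Gstt2, a glutathione transferase, ranged from 257 to 930 in hidden platform rats and from 568.4 to 4903 in yoked rats, a log2 difference of -1.62 ± 0.46. Animal 60 supplied the highest of these yoked signals, and a second Gstt2 probe set gave a log2 difference of 0.08, in the opposite direction. Dlat encodes a core subunit of pyruvate dehydrogenase, Eif2b3 a subunit of the factor that recharges the initiation factor eIF2, and Hmgb1 a chromatin protein that bends DNA. Their log2 differences were -0.85 ± 0.32, -0.80 ± 0.27 and -0.88 ± 0.30 (SE). Other Dlat probe sets gave 0.17 and -0.38, and other Eif2b3 probe sets gave 0.118 and 0.123, in the opposite direction. Lpl, which encodes lipoprotein lipase, differed by -0.90 ± 0.34, Txnl1, a thioredoxin-like protein, by -0.75 ± 0.28, and Lysmd4 by -0.75 ± 0.28. Other Lpl probe sets gave -0.14 and -0.10, and a second Lysmd4 probe set gave 0.16, in the opposite direction. In 6 of these 8 genes, the 2 highest yoked signals were those of animals 58 and 60, the arrays with low 3′ to 5′ ratios. With that ratio added to the model, 15 of the 16 leading differences became smaller, and 51 probe sets had an unadjusted p under 0.05 in that model, with 0 called. How far RNA integrity contributes to these differences was not tested further.

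Of the 16 leading genes, 15 had all 6 hidden platform rats on the same side of the yoked mean, and Arc was the exception with 5. A further 12 probe sets represent 9 of these genes, and 7 of those 12 gave a difference in the same direction.

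Complete separation of the groups was rare and, over both directions, not more frequent than chance gives. Signals of all 6 hidden platform rats lay above all 6 yoked rats on 7 probe sets (0.133% of those tested) and below on 3 (0.0572%). If group labels carried no information, a share of 0.00216 of probe sets would separate in either direction with 6 against 6 arrays. The percentages for higher and lower together do not exceed that share. Without array 39 the counts were 14 (0.267%) and 4 (0.0763%), but fewer arrays then had to separate, which happens more often by chance. The 7 include Nr3c1, Rapgef3 and Rab8b, and also Homer2, Cbr1, Tnrc6b and a probe set that matches several symbols. Homer2, Cbr1, Tnrc6b, Bex3 and Ppif are named here because they are members of these small sets, after their values had been seen. Homer2 encodes a scaffold that ties metabotropic glutamate receptors to the postsynaptic density. On the separating probe set its signal ranged from 156 to 285 in hidden platform rats and from 40.1 to 117 in yoked rats, with a log2 difference of 1.40 ± 0.32 (SE), an unadjusted p of 0.000361 and an adjusted p of 0.946 in limma. The other two Homer2 probe sets gave 0.29 ± 0.40 and 0.32 ± 0.28. Cbr1, a carbonyl reductase, differed by 0.58 ± 0.24, and Tnrc6b, a component of microRNA silencing, by 0.66 ± 0.25. The lower set held Bex3 at -0.74 ± 0.29, Ppif at -0.44 ± 0.22, which encodes the mitochondrial cyclophilin, and a probe set without a symbol. A second Bex3 probe set gave -0.09 ± 0.31.

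The plasticity genes usually followed in studies of the water maze showed no common direction. Of 20 such genes 17 were tested, of which 5 were higher and 12 lower in hidden platform rats. Their median log2 difference was -0.11, beside 0.01 over all 3233 genes, and 0 passed in either direction. For 8 of the 17 the 95% interval lay within 2-fold. Fos, the classical marker of recent neuronal firing, ranged from 578 to 1296 with a median of 938 in hidden platform rats and from 768 to 1298 with a median of 902 in yoked rats. Its log2 difference of -0.07 ± 0.25 (SE) had an interval from -0.60 to 0.45. Egr1, a transcription factor required for lasting potentiation, ranged from 12300 to 20640 in hidden platform rats and from 15440 to 39200 in yoked rats, a log2 difference of -0.51 ± 0.26. The 3 other Egr1 probe sets gave values of 0.23, 0.42 and -0.09, so the probe sets for this gene did not point one way.

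Homer1 encodes the long scaffold forms of Homer and a short form that is induced by activity and uncouples them. The chosen Homer1 probe set ranged from 2006 to 5480 with a median of 3428 in hidden platform rats and from 3990 to 8886 with a median of 5280 in yoked rats, a log2 difference of -0.72 ± 0.28 (SE). The 5 further probe sets for Homer1 gave values of 0.90, -0.05, -0.32, -0.00 and 0.42. The first of these had an unadjusted p of 0.0392 in the direction opposite to the chosen one. Which form of the transcript each probe set reads is not given in the sources used here.

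For Bdnf the log2 difference was -0.26 ± 0.39 (SE), and 3 other probe sets gave 0.34, -0.43 and -0.54. Of the yoked signals, 5 lay between 204 and 354, yoked animal 60 was at 1185, and the hidden platform rats ranged from 150 to 399. Its receptor gene Ntrk2 was higher by 0.49 ± 0.34, with all 6 hidden platform rats above the yoked mean. The receptor values were lowest, at 438 and 559, in yoked animals 58 and 60, and the difference was 0.04 with the ratio of 3′ to 5′ signal in the model. The NMDA receptor subunit genes Grin2a and Grin2b had differences of 0.09 ± 0.30 and -0.11 ± 0.28. Camk2b, a subunit of the calcium and calmodulin dependent kinase of synapses, had one of -0.04 ± 0.33 and an interval from -0.73 to 0.65, and 0.90 ± 0.55 on a second probe set. The transcription factor gene Creb1 and the synaptic vesicle gene Syn1 had differences of 0.02 ± 0.33 and -0.12 ± 0.27. Nrgn, which encodes the calmodulin-binding protein neurogranin of dendrites, had a log2 difference of -0.45 ± 0.23.

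**Figure D4:**
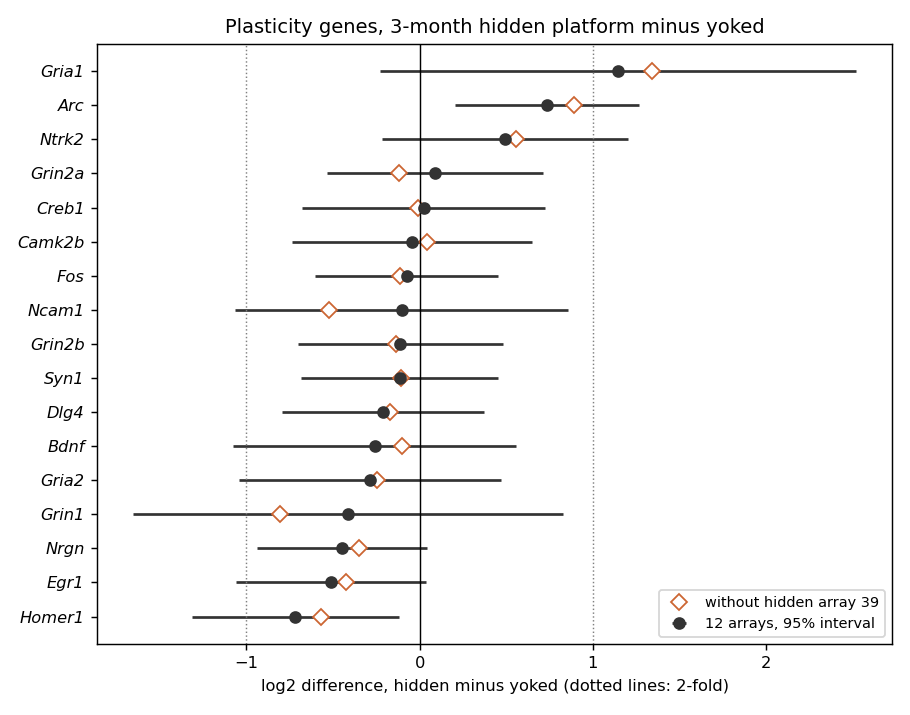
Log2 difference of hidden platform minus yoked rats for the 17 tested plasticity genes. Filled points with lines are estimates from 12 arrays with 95% intervals, open diamonds are estimates without hidden array 39, and dotted lines mark 2-fold. Arc and Homer1 are the only genes of this panel whose interval excludes 0, and neither passed the adjusted test.

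In the wider gene groups 0 members passed in either direction, so each group is described by its counts beside the 1663 of 3233 genes (51.4%) that were higher in hidden platform rats. Over probe sets that share was 54.5%, and 49.6% without array 39. Activity-induced transcription factors were higher in 8 of 14, with a median log2 difference of 0.08. Within them Nr4a1, an orphan nuclear receptor, had a difference of 0.65 ± 0.30 (SE) and Klf4 one of 0.67 ± 0.37. Without array 39 the differences of Nr4a1 and Klf4 were 0.84 and 0.44. Activity-induced effector genes were higher in 9 of 19 (median -0.00) and neurotrophins with their receptors in 6 of 11 (median 0.02). Without array 39 these 3 groups had medians of -0.03, -0.06 and -0.10. Glutamate receptors showed 4 of 6 AMPA and kainate subunit genes higher (median 0.10), 3 of 7 NMDA receptor genes higher (median -0.06) and 4 of 5 metabotropic receptor genes higher (median 0.10). Among the last, Grm3 had a difference of 0.68 ± 0.35. GABA and glycine receptor genes were higher in 4 of 12 (median -0.08), with Gabra4 at 0.70 ± 0.33 and Glra2 at -0.70 ± 0.34.

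At the synapse, vesicle and fusion genes were higher in 14 of 21 (median 0.08), among them Sv2a, a vesicle glycoprotein, at 0.63 ± 0.31. Without array 39 the vesicle group remained at 14 of 21, with a median of 0.11. Postsynaptic scaffold and spine genes were higher in 16 of 22 with a median of 0.24. Without array 39 the postsynaptic group became 13 of 22 with a median of 0.07. Akap5, which anchors protein kinase A and calcineurin at the synapse, had a difference of 0.97 ± 0.47 and Add3, an actin-capping protein, one of 0.81 ± 0.38. A second Add3 probe set gave 0.16 ± 0.35. Monoamine and acetylcholine receptor genes leaned further to the higher side, with 23 of 29 and a median of 0.15, but 15 of 29 and 0.02 without array 39. Neuropeptide genes behaved alike, with 14 of 20 (median 0.17) and 10 of 20 (0.03) without it. Over all genes, 1544 of 3233 were higher without that array, with a median of -0.02. The postsynaptic, monoamine and acetylcholine, and neuropeptide groups therefore lie nearer to all genes once it is left out, and the vesicle group does not.

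The intracellular signalling groups had medians between -0.04 and 0.04. Kinases and phosphatases were higher in 11 of 22 (median 0.04), cyclic AMP signalling genes in 14 of 23 (median 0.03), MAP kinase genes in 9 of 17 (median 0.02) and calcium sensors in 9 of 20 (median -0.04). Ion channel genes were higher in 14 of 28 (median 0.00) and adhesion genes in 11 of 20 (median 0.04). Insulin-like growth factor genes were higher in 10 of 15 (median 0.07), but in 5 of 15 (median -0.06) without array 39. Other growth factor genes were higher in 12 of 19 (median 0.16), and in 9 of 19 (median -0.00) without that array. Fgfr1, a receptor for fibroblast growth factors, had a difference of 0.82 ± 0.30 among these growth factor genes, and a second probe set gave 0.02 ± 0.46.

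Housekeeping and metabolic groups leaned to the lower side. Oxidative phosphorylation genes were higher in 12 of 32 (median -0.11), glycolysis and glucose transport genes in 10 of 24 (median -0.11), ribosomal protein genes in 18 of 39 (median -0.07) and antioxidant genes in 12 of 27 (median -0.06). Heat shock and chaperone genes were higher in 10 of 25 with a median of -0.22, and -0.09 without array 39. Canx, the endoplasmic reticulum chaperone calnexin, had a difference of -0.82 ± 0.32, while another of its probe sets gave 0.13, and Hspe1, a mitochondrial chaperonin, one of -0.66 ± 0.29. After quantile normalization, where the median over all genes was -0.04, the medians were 0.01 for oxidative phosphorylation, 0.04 for ribosomal, -0.02 for glycolysis, -0.05 for antioxidant and -0.08 for heat shock genes. Relative to all genes, the lower lean of these groups thus became smaller or disappeared under that scaling. Leaving out array 39 instead gave -0.09 for oxidative phosphorylation, -0.08 for ribosomal, -0.07 for glycolysis and -0.02 for antioxidant genes. The median over all genes was then -0.02. Median centring gave -0.20 for oxidative phosphorylation beside -0.08 over all genes. It shifts every difference by the same amount, so it cannot alter a lean relative to all genes and is no check on it. Over all probe sets, the difference between groups also fell with signal level, with a Spearman correlation of -0.30 across probe sets, and of 0.01 without array 39. Proteasome genes were higher in 18 of 33 (median 0.03), MHC and interferon genes in 9 of 19 (median -0.01), and axon and cytoskeleton genes in 10 of 22 (median -0.06). In the last of these, Map2 and Nefl, which encode a dendritic and an axonal structural protein, differed by -0.66 ± 0.31 and -0.69 ± 0.33 on the chosen probe sets. The other two Map2 probe sets gave 1.49 ± 0.46 and 2.18 ± 0.75, with unadjusted p-values of 0.00487 and 0.00981 in the opposite direction, and an adjusted p of 0.976 each in limma. The second Nefl probe set gave 0.08 ± 0.56. No direction can be given for either gene.

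Markers of other cells were examined as a check on the make-up of the punches. Astrocyte markers were higher in 2 of 8 (median -0.22), oligodendrocyte markers in 5 of 6 (median 0.23) and microglial markers in 4 of 5 (median 0.41), with 0 passing. Without array 39 these were 4 of 8 (median -0.05), 5 of 6 (median 0.35) and 5 of 5 (median 0.25). Interneuron markers were higher in 4 of 7 (median 0.13), endothelial and mural markers in 4 of 6 (median 0.05) and CA1 and pyramidal markers in 2 of 5 (median -0.13). Without array 39 they were higher in 4 of 7 (median 0.02), 1 of 6 (median -0.23) and 2 of 5 (median -0.06). Summed oligodendrocyte signal ranged from 5010 to 22370 on hidden arrays and from 7858 to 20200 on yoked arrays, and summed microglial signal from 2440 to 7000 and from 4210 to 6167. Of 3 tested blood markers, the globin genes Hbb and Hbb-b1 had log2 differences of 1.06 ± 0.51 and 0.78 ± 0.33 (SE), and Alas2 one of -0.29 ± 0.38. Summed blood signal ranged from 1800 to 7912 on hidden arrays and from 1358 to 4010 on yoked arrays. The highest of these was array 39, and without it the globin differences were 0.76 and 0.60. No tested marker was listed at 0 on any of the 12 arrays, and the part of blood or glia in the leading differences was not tested.

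The labels give no batch, but animal numbers fall into separate runs, and both groups are present in 2 of them. The lower run holds 2 hidden platform and 3 yoked rats, and the upper run 4 and 3. Each run on its own gave 0 calls. Across the 5244 probe sets the differences in the 2 runs, which share no array, had a Spearman correlation of 0.01, and 50.8% had the same sign. Without array 39 these figures were -0.13 and 43.9%. All 16 leading genes had the same sign in both runs, but they were picked for their difference over the same arrays, so this count is a description. Arc differed by 0.94 in the lower run and 0.70 in the upper, and Nr3c1 by 0.72 and 0.78. For 13 of the 16 the difference was larger in the upper run, which holds arrays 39, 58 and 60. Gstt2 was the most uneven, with -0.51 in the lower run and -2.32 in the upper.

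A related contrast in 24-month rats was used to ask whether any difference was particular to 3 months. It set 13 aged hidden platform rats that the labels class as unimpaired against 8 aged yoked rats, with no array shared between ages. Aged hidden platform rats of other label classes were left out, whereas 3-month hidden platform rats carry no such class. Aged yoked array 63 and unimpaired array 81 had median correlations with the other arrays of the series of 0.642 and 0.785. For hidden platform animal 39 that value was 0.661. Both aged arrays are included in the values below. Some aged arrays of each group belong to a run of animal numbers without 3-month rats. The difference between ages passed for 0 of 5244 probe sets in limma (0.0%), and the lowest adjusted p was 0.281. Before adjustment, 439 probe sets (8.37%) had a p under 0.05. The contrast in aged rats itself passed for 0, with 460 (8.77%) under 0.05 before adjustment. Across probe sets the 3-month and 24-month differences had a Spearman correlation of -0.09, and 0.17 without array 39. Of the 16 leading genes, 10 had the same sign in aged rats.

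Arc had a log2 difference of 0.16 ± 0.24 (SE) in aged rats, and the difference between ages was 0.57 ± 0.39. Nr3c1 had 0.24 ± 0.16 in aged rats, and Gria3 0.66 ± 0.30. None of these 3 differed between ages at an adjusted p under 0.05. Rapgef3 had -0.53 ± 0.31 in aged rats, and its difference between ages was 1.82 ± 0.50 with an adjusted p of 0.499. On the lower side, Homer1 and Lysmd4 led the ranking by p for the difference between ages. Homer1 had a log2 difference of -0.72 in 3-month and of 0.65 in 24-month rats, and the difference between ages was -1.37 ± 0.33 with an adjusted p of 0.331. Lysmd4 gave -0.75 and 0.69, a difference of -1.43 ± 0.35 with the same adjusted p. Both rest on the chosen probe set. At 3 months the other Homer1 probe sets ranged from -0.32 to 0.90, and the second Lysmd4 probe set gave 0.16. On the higher side Slc27a2, a fatty acid transporter, and the GABA receptor subunit Gabra4 followed Rapgef3, with differences between ages of 2.13 ± 0.62 and 1.47 ± 0.42, both with an adjusted p of 0.499.

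**Figure D5:**
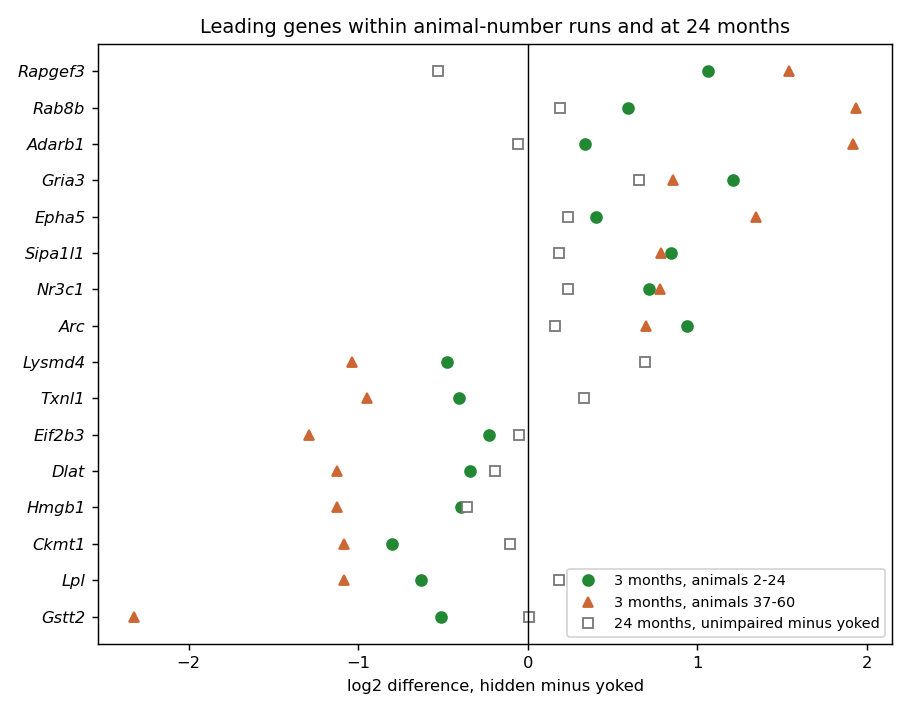
Log2 difference of hidden platform minus yoked rats for the 16 leading genes, in animals 2 to 24 (green circles), in animals 37 to 60 (orange triangles) and in 24-month rats (open squares). All 16 lie on the same side of 0 in both runs of 3-month rats, as their choice favours, and 10 of 16 do so at 24 months.

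The other 3-month groups give a level for reference. Arc signals were 1384, 2379, 1604 and 1815 in the 4 visible platform rats and 2619, 849 and 984 in the 3 cage controls. All 4 visible platform rats and 2 of 3 cage controls were thus within or below the yoked range of 1572 to 2530, and 5 of 6 hidden platform rats were above every one of these values. Nr3c1 signals were 327, 419, 685 and 512 in visible platform rats and 324, 405 and 705 in cage controls, and here single rats of both groups reached the hidden platform range. Of these 7 arrays, 4 had a median correlation with the other arrays under 0.85, and no test was made across them.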

How the data were processed

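CA1 messenger RNA of 12 rats was measured on 1 array each. The deposited values are intensity values, a linear signal per probe set that the authors made with MAS5, per the submitters' processing notes. Scanner images and detection calls were not used here, and the build of the probe sets' design is not given in the sources used here. Of 8799 probe sets, 59 are controls. Of the rest, 7006 have 1 symbol in the platform annotation, 308 several and 1426 none. For 6985 the symbol was updated through the gene identifier to RefSeq's current one, and 21 kept the file's name.

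Tests ran on log2(signal + 15), a scale that understates changes of low signals. A filter dropped the 40% of lowest mean over 79 arrays and kept 5244 probe sets, or 3233 genes. The fit used limma 3.58.1 in R 4.3.3 (lmFit, eBayes with trend), two-sided, on the 12 arrays only, because arrays of other 3-month groups stand apart. The threshold was a Benjamini-Hochberg adjusted p under 0.05. The comparison with 24-month rats used the 33 arrays of 4 groups. Exact permutation tests used scipy 1.17.1. The fits were checked on simulated normal values with the measured spread. Of 100 probe sets changed by 1 on the log2 scale 20% were called, and of 100 changed by 2, 82%. Among 5044 unchanged probe sets 3 were called. The 3′ to 5′ ratio averages 3 pairs of control probe sets.

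Each gene is represented by its probe set of highest mean signal among those with 1 symbol. Since fewer than 5 passed, the 8 smallest unadjusted p in each direction are named as values, with 3 genes per list by the same measure, the 20 plasticity genes, and 5 per direction for the difference between ages. Members, lists and rules were chosen with earlier results of these data known. No genome coordinates or sequences were used. The number of arrays limits the precision. Alternatives covered a filter of 60% or none, a pseudocount of 1 or 60, median centring, quantile normalization, array quality weights, a robust eBayes with no trend, the 3′ to 5′ ratio in the model, runs of animal numbers (1 to 36, 37 to 76 and 81 to 100) as a block or singly, the arrays in the fit, other probe sets and leaving out each array.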

Additional observations from a re-analysis of the deposited data

Results flagged for a closer look

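In groups of 6 arrays, a sample was singled out where its gap to the nearest other sample was large for the group's range. For independent, normally spread values this rule would single out a sample in about 1 in 20 groups. Signals were examined on the linear scale and the groups share the same arrays, so that rate cannot be applied here. Of 92 groups of values examined, 16 had such a sample. Of those, 8 concerned the array of hidden platform animal 39: its median correlation with the other arrays (0.670), the disagreement among its probe sets for one gene (1.036, as a root mean square SD on the log2 scale) and its spike-in controls (a mean log2 signal of 13.6) stood apart from those of the other hidden arrays, as did its signals for Ttr (15330 and 42280 on 2 probe sets), Klf4 (517), Grin2a (1187) and Ncam1 (1376). Hidden platform animal 37 stood apart in Rab8b (359) and in Camk2b (16680). Yoked animal 60 stood apart in Bdnf (1185). Yoked animal 59 stood apart in Gria1 (9440), in Camk2b (20030), and on 3 probe sets that match several symbols, rc_AA893870_at (350), its companion probe set (1810) and rc_AA859372_s_at (18530). On rc_AA859372_s_at the other yoked signals were 1062, 623, 5006, 342 and 852, and the hidden platform signals ranged from 4002 to 18910. No explanation of these samples was tested.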

How the results depend on the processing

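With 0 probe sets called among 5244 for hidden platform minus yoked rats, all 18 alternatives also gave 0, with between 51 (3′ to 5′ ratio in the model) and 486 probe sets at an unadjusted p under 0.05. The adjusted p in limma did move with array quality weights. It was then 0.089 for the separating Homer2 probe set and 0.201 for Arc and Ckmt1, but 0.999 for Rab8b. Leaving out each array in turn gave 0 to 1 calls and 94 to 409 probe sets at an unadjusted p under 0.05. The 1 call appeared without yoked animal 59, for rc_AA859372_s_at, whose log2 difference went from 2.82 ± 0.73 to 3.52 ± 0.55 (SE), with an adjusted p of 0.0387 in limma. The difference between ages stayed at 0 in 15 alternatives and in 33 omissions. The contrast in aged rats gave 6 calls with array quality weights and 0 in 12 other alternatives.

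Probe sets without overlap between groups, 7 higher and 3 lower, became 4 higher with the lowest 60% left out, 3 higher and 1 lower after quantile normalization, 2 higher after median centring, and 27 higher and 12 lower without the arrays of disagreement over 0.75 (hidden 39, yoked 58 and 60), where fewer arrays have to separate. Leaving out each array, which also makes separation by chance more frequent, gave 7 to 16 higher and 3 to 17 lower. Among leading and plasticity genes with an unadjusted p under 0.05, other probe sets of the same gene reversed the log2 difference for Gstt2 (0.078), Eif2b3 (0.118 and 0.123), Lysmd4 (0.163), Dlat (0.172) and Homer1 (0.8996 and 0.420). Reversals among the other genes the text names were 1.49 and 2.18 for Map2, 0.234 and 0.4195 for Egr1, 0.9004 for Camk2b, 0.342 for Bdnf, 0.131 for Canx, 0.122 for Fos, 0.084 for Nefl, 0.064 for Klf9 and -0.216 for Grin2a. The cause was not tested. Of 134 named genes, 29 changed sign under any of 27 alternatives and omissions (fits within a run and other probe sets aside), none of them among the 36 with an unadjusted p under 0.05. The 2 alternatives that left out array 39 with median centring, or within the upper run of animal numbers, were chosen after seeing the data. No paired analysis was possible because every animal number occurs once, so the groups share no replicate number. The standard error, at a median of 0.35 on the log2 scale, limits what 6 against 6 arrays can show.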
